A study of Arabidopsis thaliana with 6 samples.

Results

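The 10 genes described here encode 7 GH3 proteins (GH3.1, GH3.2, GH3.3, GH3.4, GH3.5, GH3.6 and GH3.17) and 3 PIN proteins (PIN3, PIN5 and PIN7) of Arabidopsis thaliana. They were chosen by locus as genes of auxin conjugation and transport, because WRI1 is known to affect auxin homeostasis in roots, and were followed among 21671 genes with a read in any library. RNA was sequenced at 16 h after transfection from Col-0 mesophyll protoplasts (wall-less cells of the inner leaf). The 3 GmWRI1 libraries came from cells given a 35S:GmWRI1 plasmid carrying the cDNA of the soybean factor GmWRI1-A, and the 3 mCHERRY libraries from cells given a 35S:mCHERRY plasmid as the negative control. The 35S promoter is a viral promoter that is active in most plant cells. Each library is a bulk of transfected and untransfected cells, in proportions not given in the sources used here, and the labels name no added auxin in either group.

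Libraries held 4155836 to 11748328 gene counts, and those of one group resembled each other (Pearson r across genes 0.985 to 0.990) more than those of the other group (0.922 to 0.945). Of 14762 tested genes, 1393 (9.44%) were called up-regulated in GmWRI1 cells and 214 (1.45%) down-regulated (edgeR quasi-likelihood test, adjusted p under 0.05 and log2 fold change over 1 in size). Levels are given in CPM, counts scaled by TMM to a common library total, and a count of 0 allows up to 3 counts, or 0.256 to 0.742 CPM depending on the library. As the libraries are bulk RNA, more cells expressing a gene and more RNA per cell cannot be told apart.

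Auxin, chiefly indole-3-acetic acid (IAA), acts through the degradation of Aux/IAA repressors, which frees ARF transcription factors. The listed GH3 enzymes join IAA to amino acids and so lower the free hormone, and several GH3 genes are themselves switched on by auxin. PIN proteins carry auxin across membranes: PIN3 and PIN7 export it from the cell at the plasma membrane, whereas PIN5 lies in the endoplasmic reticulum.

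The sequences shown first are those near the start sites to which the mRNA results below can be set, namely matches to the AW Box, the element known to be bound by WRI1 (CNTNG(N)7CG, where N is any base), and to the auxin response element known to be bound by ARF factors (TGTCTC). Both strands were searched within 500 bases of the annotated transcription start in the RefSeq TAIR10.1 genome. Only part of the matches are printed, namely AW Boxes of tested genes and auxin response elements of up-regulated genes. The other matches, among them the auxin response element upstream of GH3.5, are described further below. Letters in capitals mark the match, and each sequence is written 5′ to 3′ on the strand of the match.
GH3.2 AW Box, upstream, chr4:17579285-17579314, minus strand: ctaataagCTTTGCTTATAACGttattaac
GH3.2 AW Box, upstream, chr4:17579317-17579346, minus strand: tgtttggtCGTCGATAATGACGgtcaaaaa
PIN7 AW Box, coding exon, chr1:8183251-8183280, minus strand: aaccgcttCGTCGCTATTTTCGccgtccct
GH3.5 AW Box, coding exon, chr4:13653920-13653949, minus strand: aatatcttCGTAGGTGATAACGggcatgat
GH3.6 AW Box, coding exon, chr5:22133316-22133345, plus strand: ttgaatatCTTCGTAAGTTACGacaggcat
GH3.2 auxin response element, upstream, chr4:17579466-17579487, plus strand: gtcccttaTGTCTCcattaact
GH3.3 auxin response element, upstream, chr2:9866665-9866686, minus strand: ttgtccccTGTCTCggtctaac

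GH3.2 and GH3.3 mRNAs were higher in GmWRI1 cells, whereas those of GH3.5, GH3.6 and GH3.17, the GH3 genes with high levels in control cells, did not pass the test. PIN7 was detected in GmWRI1 libraries and had no read in any mCHERRY library. In all, 6 of the 10 genes had enough reads to be tested, and of these the test called 3 higher and 0 lower in GmWRI1 cells. Among all 14762 tested genes, 9.44% were called higher and 1.45% lower. In each of the 3, the lowest GmWRI1 library exceeded the highest mCHERRY library, which was so in 24.9% of all tested genes. GH3.3 and PIN7 passed the filter on low counts only through their GmWRI1 libraries. GH3.2 needed its GmWRI1 libraries too, as its 9 counts in mCHERRY library 2 fell short of the depth-scaled cutoff. Neither the calls nor the lack of overlap in these 3 genes are therefore independent of the filter. The 10 genes were also chosen with earlier results of these data known. The 3 calls among 6 tested genes are thus a description and no test of the list.

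GH3.2 (AT4G37390, chromosome 4, 17579618 to 17582022) encodes an enzyme that conjugates IAA to aspartate. It stood at 3.55, 1.46 and 1.98 CPM in mCHERRY libraries 1, 2 and 3 and at 9.48, 18.0 and 10.5 CPM in GmWRI1 libraries 1, 2 and 3. The groups did not overlap, and GmWRI1 library 2 was the highest. The mean rose from 2.33 ± 1.09 to 12.7 ± 4.63 CPM (SD, n = 3). This gave a fold change of 2.35 on the log2 scale with an SE of 0.32 (edgeR adjusted p = 4.34e-06).

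GH3.3 (AT2G23170, chromosome 2, 9863855 to 9866562), an IAA-amido synthetase closely related to GH3.2, was counted 2, 1 and 3 times in mCHERRY and 25, 16 and 21 times in GmWRI1 libraries. It was therefore scarce in both groups, but the groups did not overlap. The mean rose from 0.383 ± 0.314 to 2.86 ± 1.20 CPM (SD, n = 3), or by 2.97 on the log2 scale with an SE of 0.57 (edgeR adjusted p = 0.000318). The ratio of the pooled counts was 7.95, with an exact 95% counting interval of 3.45 to 22.5. Without mCHERRY library 3, which held 3 of the 6 control counts, the log2 fold change was 3.6 (edgeR adjusted p = 0.000431).

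The 3 abundant genes among the listed GH3 genes showed no call in either direction. GH3.6 (AT5G54510, chromosome 5, 22130964 to 22133688), also known as DFL1, stood at 209.4, 222.0 and 305.8 CPM in mCHERRY and 223.2, 222.3 and 258.9 CPM in GmWRI1 libraries. The groups overlapped, and the log2 fold change of -0.06 had a 95% interval of -0.30 to 0.18 (edgeR adjusted p = 0.723). Without mCHERRY library 3, the highest of the 6, it was 0.12 (edgeR adjusted p = 0.408), so no direction can be given.

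GH3.17 (AT1G28130, chromosome 1, 9825169 to 9828118), which conjugates IAA to glutamate, stood at 92.2, 117.8 and 114.5 CPM in mCHERRY and at 129.8, 111.0 and 148.9 CPM in GmWRI1 libraries. GmWRI1 library 2 lay below mCHERRY libraries 2 and 3. The log2 fold change was 0.27 (95% interval 0.03 to 0.50, edgeR adjusted p = 0.0758), short of the fold limit at any p.

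GH3.5 (AT4G27260, chromosome 4, 13653579 to 13656285), which acts on IAA and on salicylic acid, stood at 62.7, 65.4 and 95.7 CPM in mCHERRY and at 50.8, 58.8 and 70.6 CPM in GmWRI1 libraries. Only GmWRI1 library 3 reached into the mCHERRY range, and mCHERRY library 3 lay above the others. The log2 fold change was -0.31 (95% interval -0.61 to -0.01, edgeR adjusted p = 0.0988). Without mCHERRY library 3 it was -0.11 (edgeR adjusted p = 0.541). Leaving out any other library gave -0.43 to -0.19. The adjusted p was under 0.05 without mCHERRY library 1 or without GmWRI1 library 3 (edgeR adjusted p = 0.0352 in each). Library 3 of mCHERRY was also the shallowest and had the highest share of reads naming no gene (63.3%). The part of this in the GH3.5 and GH3.6 values was not tested.

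**Figure D1:**
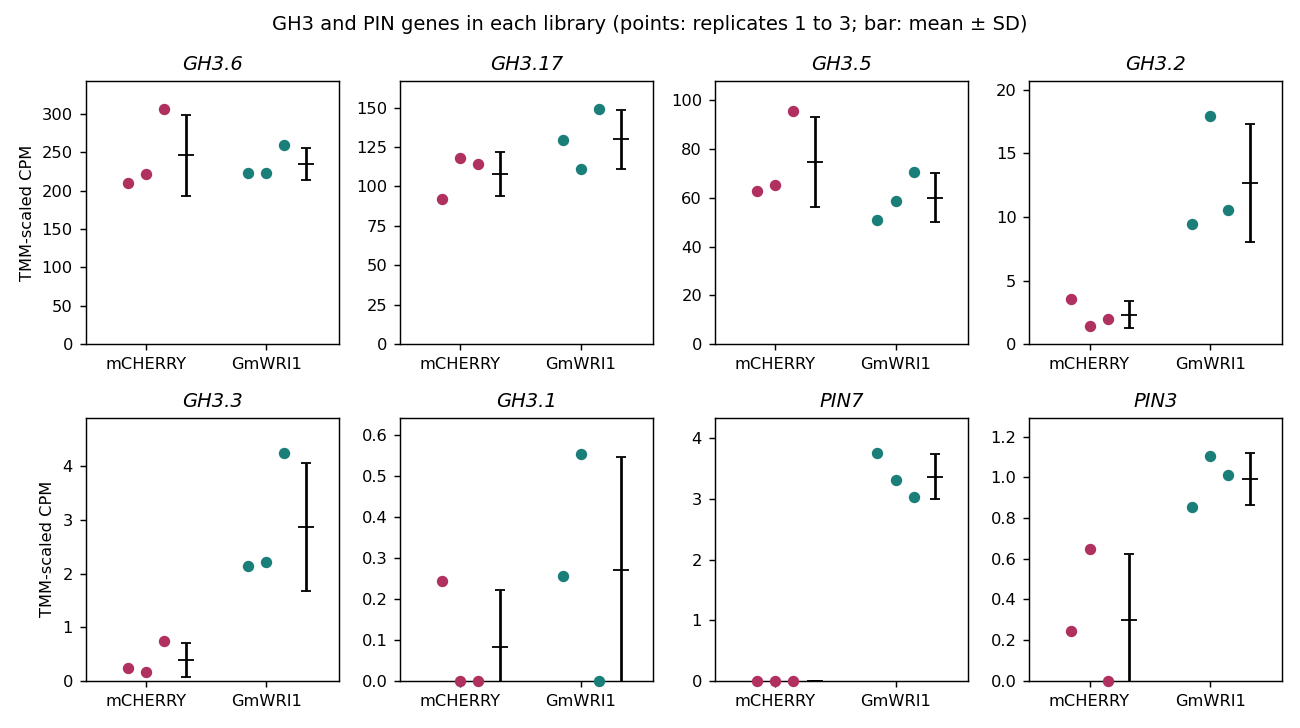
TMM-scaled CPM of the 8 genes with any read, on a linear axis from 0 for each gene. Points are the 3 libraries of each group and bars are the mean ± SD, with bars that pass below 0 not drawn there. GH3.2, GH3.3, PIN7 and PIN3 have no overlap between the groups, whereas in the other 4 genes the groups overlap. Of all tested genes, 24.9% had all 3 GmWRI1 libraries above all 3 mCHERRY libraries. PIN3 did not pass the filter on low counts, and GH3.2, GH3.3 and PIN7 passed it only with their GmWRI1 libraries.

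Since reads shared equally by close paralogs were lost in the alignment, the share of each transcript that is unique was computed. This check counted exact matches only, whereas the alignment allowed mismatches. With reads assumed to be 36 bases long, 94.9% of positions in GH3.2, 99.0% in GH3.3 and 94.9% in GH3.4 matched no other primary transcript, and the shared stretches lay among these 3 genes. GH3.5 and GH3.6 shared sequence only with each other and were unique at 99.7% of positions each. The other 5 genes were unique throughout, and 0 of the 10 overlapped another annotated gene.

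The remaining listed GH3 genes were at or near the limit of detection. GH3.1 (AT2G14960, chromosome 2, 6451319 to 6453797) had 2, 0 and 0 counts in mCHERRY and 3, 4 and 0 counts in GmWRI1 libraries, and was not tested. The pooled ratio of 2.69 had a counting interval of 0.513 to 26.6, so a difference was not detectable at this depth. GH3.4 (AT1G59500, chromosome 1, 21854493 to 21856614) was taken as 0 counts in all 6 libraries, which allows up to 0.256 CPM in the deepest library and 0.742 CPM in the shallowest.

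Taken over the 7 GH3 genes, the summed level differed by less than the spread between libraries, at 431.3 ± 78.2 CPM in mCHERRY and 440.5 ± 45.5 CPM in GmWRI1 libraries (SD, n = 3). The make-up of that sum did differ. GH3.2 and GH3.3 together took 1.03%, 0.399% and 0.525% of GH3 reads in mCHERRY libraries 1, 2 and 3. In GmWRI1 libraries 1, 2 and 3 they took 2.80%, 4.89% and 2.99%. The 95% Wilson interval closest to the other group ran from 0.726% to 1.46% in mCHERRY library 1 and from 2.37% to 3.3% in GmWRI1 library 1. These shares do not depend on the scaling between libraries, but intervals cover counting error only.

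The shares of GH3.5 and GH3.6 were lower in GmWRI1 libraries without overlap between groups. GH3.5 took 17.2% ± 1.20 (SD, n = 3) of GH3 reads in mCHERRY and 13.6% ± 1.18 in GmWRI1 libraries. GH3.6 took 56.8% ± 2.19 and 53.4% ± 0.740 (SD, n = 3). For GH3.17 the groups overlapped, at 25.4% ± 3.45 and 29.4% ± 2.26 (SD, n = 3). Shares sum to the whole, so a higher share of one gene lowers the others, and no test was run on them.

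**Figure D2:**
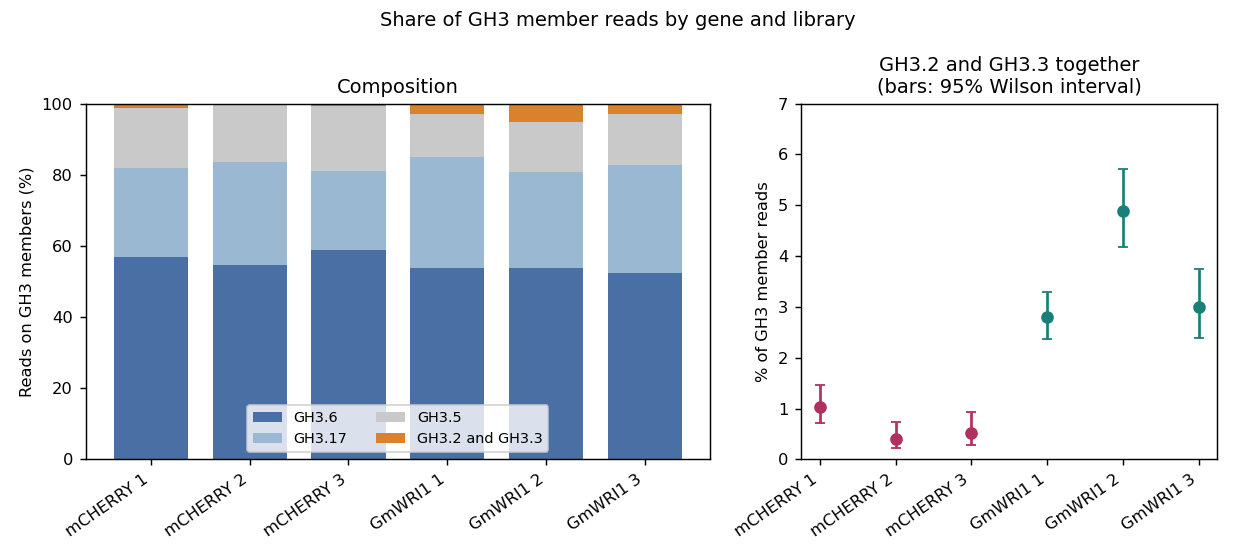
On the left, stacked bars give the percent of reads on the 7 GH3 genes taken by GH3.6, GH3.17, GH3.5 and by GH3.2 with GH3.3 in each library; GH3.1 is too scarce to draw. On the right, the GH3.2 and GH3.3 share is plotted with its 95% Wilson interval, and lies between 0.399% and 1.03% in mCHERRY and between 2.80% and 4.89% in GmWRI1 libraries.

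Among the transport genes, PIN7 (AT1G23080, chromosome 1, 8180189 to 8183650) changed from undetected to detected. It was counted 0, 0 and 0 times in mCHERRY and 44, 24 and 15 times in GmWRI1 libraries, the latter being 3.76, 3.32 and 3.03 CPM. The 3 GmWRI1 libraries lay close together after scaling, at 3.37 ± 0.365 CPM (SD, n = 3). With a floor of 3 counts set for each mCHERRY library, the mean of PIN7 was at least 6.34-fold above the mean floor. The pooled ratio had a lower 95% counting limit of 16.9 and no upper limit. The test of the fitted change gave an edgeR adjusted p of 1.23e-06. The fitted log2 fold change of 7.60 depends on the prior count used for genes at 0 and is no bound.

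PIN3 (AT1G70940, chromosome 1, 26742940 to 26746469), the closest relative of PIN7 listed here, had 2, 4 and 0 counts in mCHERRY and 10, 8 and 5 counts in GmWRI1 libraries. In CPM the GmWRI1 libraries (0.854, 1.11 and 1.01) did not overlap the mCHERRY libraries (0.245, 0.649 and 0). PIN3 did not pass the filter on low counts. Fitted without that filter, its log2 fold change of 1.55 did not pass the test (edgeR adjusted p = 0.146), and the pooled ratio of 2.95 had a counting interval of 1.17 to 8.86. PIN5 (AT5G16530, chromosome 5, 5400600 to 5402845) was likewise taken as 0 counts in all 6 libraries.

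To order the levels, CPM were divided by transcript length in kb, and only this scale compares genes. In mCHERRY libraries the mean was 105.9 for GH3.6, 46.5 for GH3.17 and 31.7 for GH3.5, followed by 1.07 for GH3.2, 0.181 for GH3.3, 0.108 for PIN3 and 0.0364 for GH3.1. The ranges of GH3.17 (39.6 to 50.6) and GH3.5 (26.6 to 40.6) met, although GH3.17 was the higher in each library. GH3.3, PIN3 and GH3.1 were not separated from each other. In GmWRI1 libraries the means were 101.2 for GH3.6, 55.8 for GH3.17, 25.5 for GH3.5, 5.83 for GH3.2, 1.35 for GH3.3, 1.26 for PIN7, 0.360 for PIN3 and 0.12 for GH3.1. There GH3.3 (1.01 to 2.01) and PIN7 (1.13 to 1.40) overlapped. Thus GH3.2 and GH3.3 kept their places below the 3 abundant GH3 genes in both groups.

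Because PIN genes are also used in vascular and epidermal tissue, markers of the cell types a leaf preparation could hold were examined. All 4 mesophyll markers were detected. Their summed level was 125.5 to 136.1 CPM in mCHERRY and 393.8 to 457.5 CPM in GmWRI1 libraries, mostly through RBCS1A, which rose by 2.95 on the log2 scale (edgeR adjusted p = 5.96e-15). LHCB3 (0.82, edgeR adjusted p = 0.00906) and LHCA1 (0.39, edgeR adjusted p = 0.0162) were higher but under the fold limit, and CA1 did not pass the test (-0.15, edgeR adjusted p = 0.321). The 4 epidermis markers summed to 0.489 to 1.48 CPM in mCHERRY and 0.607 to 1.20 CPM in GmWRI1 libraries, and the 3 guard cell markers to 0.990 to 2.27 and 1.21 to 3.2 CPM. The 5 markers listed as vascular summed to 10.5 to 13.6 CPM in mCHERRY and 16.7 to 17.9 CPM in GmWRI1 libraries. This was almost wholly through SCR (0.56, edgeR adjusted p = 0.0124), so the difference in the sum describes SCR alone. APL, SWEET11 and SWEET12 had at most 4 counts in any library, and the groups overlapped. SUC2, a marker of phloem companion cells, had 0, 0 and 0 counts in mCHERRY and 3, 0 and 0 in GmWRI1 libraries. The part of these differences in the PIN7 and GH3 values was not tested.

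The 10 genes were then set beside 119 other auxin genes in 8 lists. Of the 60 tested, the test called 7 (11.7%) higher and 0 lower, close to the 9.44% and 1.45% among all tested genes. At an adjusted p under 0.05 with no fold limit, 14 were higher and 11 were lower, where all tested genes gave 20.4% and 14.6%. Calls in other auxin genes were thus spread over both directions once the fold limit was dropped.

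**Figure D3:**
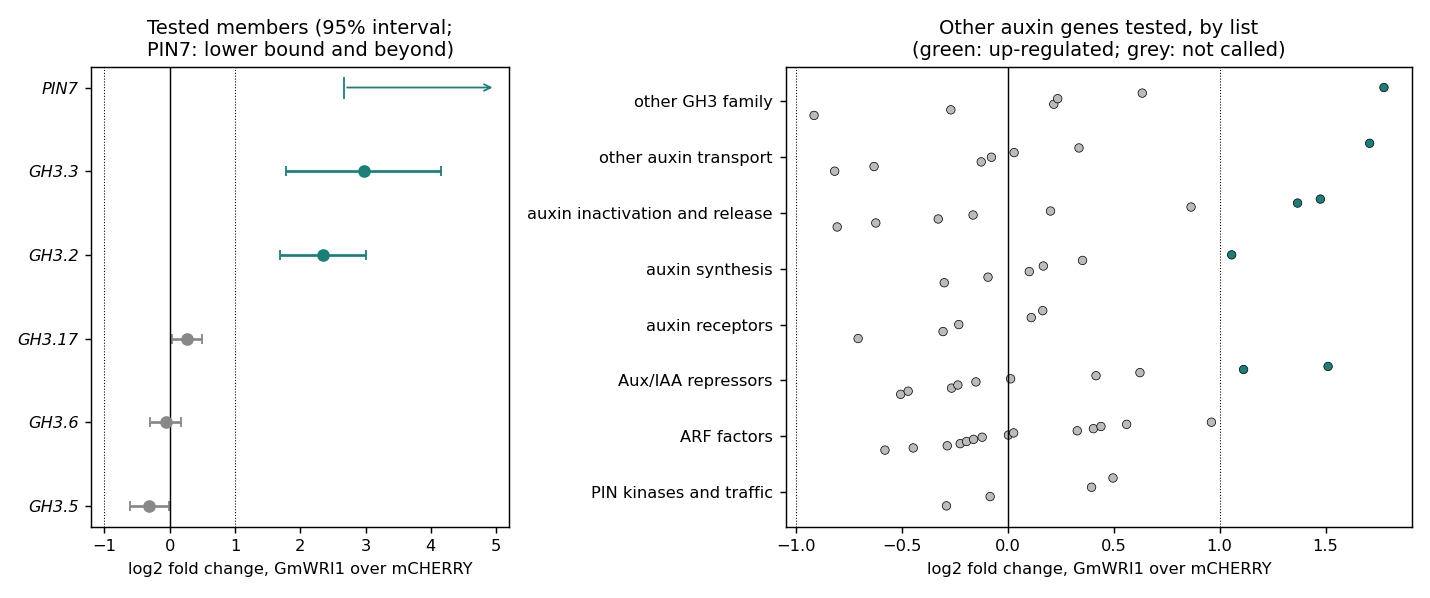
Log2 fold changes of GmWRI1 over mCHERRY, with dotted lines at -1 and 1. On the left, points and bars are the fitted value and 95% interval of the tested GH3 genes, and PIN7 is drawn as an arrow from its lower bound of 2.66; on the right, each point is 1 of the 60 other tested auxin genes, of which 7 are up-regulated.

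Within the GH3 family, 6 of 12 other members were tested. GH3.14 (AT5G13360) was up-regulated, from 18.0 ± 1.51 to 61.4 ± 3.03 CPM (SD, n = 3), or by 1.78 on the log2 scale with an SE of 0.12 (edgeR adjusted p = 1.43e-10). JAR1, which conjugates jasmonate to isoleucine, and PBS3, an enzyme of salicylic acid synthesis, passed the adjusted p but not the fold limit, at -0.27 (edgeR adjusted p = 0.0246) and 0.23 (edgeR adjusted p = 0.0385). The median of the 6 was 0.23.

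In other auxin transport, 1 of 7 tested genes was up-regulated and 0 down-regulated, with a median of -0.08. ABCB19, an auxin exporter of the ABC class, had 10, 14 and 3 counts in mCHERRY and 53, 36 and 25 counts in GmWRI1 libraries, and its fitted log2 change was 1.71 with an SE of 0.36 (edgeR adjusted p = 0.000792). ABCB4 (-0.82) and PILS3 (-0.63) passed the adjusted p but not the fold limit (edgeR adjusted p = 2.32e-07 and 1.79e-05). PIN2 and PIN4 had at most 6 counts in any library.

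Other routes of auxin inactivation and release gave 2 up-regulated and 0 down-regulated genes of 8 tested, with a median of 0.02. UGT74D1, which adds glucose to auxin, rose by 1.48 on the log2 scale with an SE of 0.12 (edgeR adjusted p = 1.28e-09). ILL2, an amidohydrolase that frees IAA from its conjugates and so acts opposite to GH3 enzymes, rose by 1.37 with an SE of 0.15 (edgeR adjusted p = 2.08e-07). IAR3, of the same family as ILL2, was lower at -0.81 but under the fold limit (edgeR adjusted p = 1.30e-06), and ILL1, also of that family, was higher at 0.86 and under the limit (edgeR adjusted p = 0.00308). DAO1, which oxidizes IAA, was lower at -0.62 and under the limit (edgeR adjusted p = 0.000230).

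Of 21 synthesis genes, 10 had no read and 6 were tested. NIT2, a nitrilase, was up-regulated by 1.06 (SE 0.09, edgeR adjusted p = 3.26e-09), near the fold limit, and none of the YUC genes, which catalyse the last step of the main route to IAA, had enough reads to be tested.

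For signalling, 0 of 5 tested receptors were up-regulated or down-regulated, nor were any of 14 tested ARF genes or 4 tested genes of PIN phosphorylation and traffic. AFB4 was the 1 receptor past the adjusted p, at -0.71 (edgeR adjusted p = 1.57e-05), and ARF genes past it were 3 higher and 3 lower. Among 29 Aux/IAA genes, many of which auxin induces quickly, 10 were tested and 2 were up-regulated. IAA2 rose from 5.65 ± 0.12 to 12.5 ± 2.19 CPM (SD, n = 3; log2 fold change 1.11, edgeR adjusted p = 0.000291) and IAA12 from 2.65 ± 0.570 to 7.82 ± 2.22 CPM (SD, n = 3; 1.51, edgeR adjusted p = 0.000283). The median of the 10 was -0.07. IAA16 (-0.51, edgeR adjusted p = 0.000377) and IAA26 (-0.27, edgeR adjusted p = 0.0473) were lower but under the fold limit.

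Returning to the sequences, AW Boxes were found at GH3.2 and PIN7 but not within 500 bases of the start of GH3.3. GH3.2 had 2, centred at -318 and -286 bases from its start, where 18.4% of 27407 protein-coding genes have at least 1. PIN7 had 1, centred 384 bases downstream, where 40.0% of genes have at least 1. GH3.5 and GH3.6, which were not called, also had 1 each, 355 and 357 bases downstream in coding sequence. Of the genes not tested, GH3.1 had 2 downstream, PIN3 had 1 downstream and GH3.4 had 1 upstream at -216 bases. With both windows pooled, 7 of the 10 genes had a match. The share of all genes with a match in either window was not computed, so neither single-window share can be set against these 7. Matches thus occurred both in genes that rose and in genes that did not pass the test.

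The auxin response element TGTCTC lay upstream of GH3.2 (at -141 bases), GH3.3 (-113), GH3.4 (-351) and GH3.5 (-44), where 21.5% of all genes have at least 1. The variant TGTCGG was found in none of the upstream windows, where 7.74% of all genes have it. Downstream, TGTCTC was found in GH3.1 and GH3.4, where 31.9% of all genes have it. TGTCGG was found downstream in GH3.1, GH3.17 and PIN3, where 10.9% of all genes have it. A match describes letters only, and whether any site is used was not measured.

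**Figure D4:**
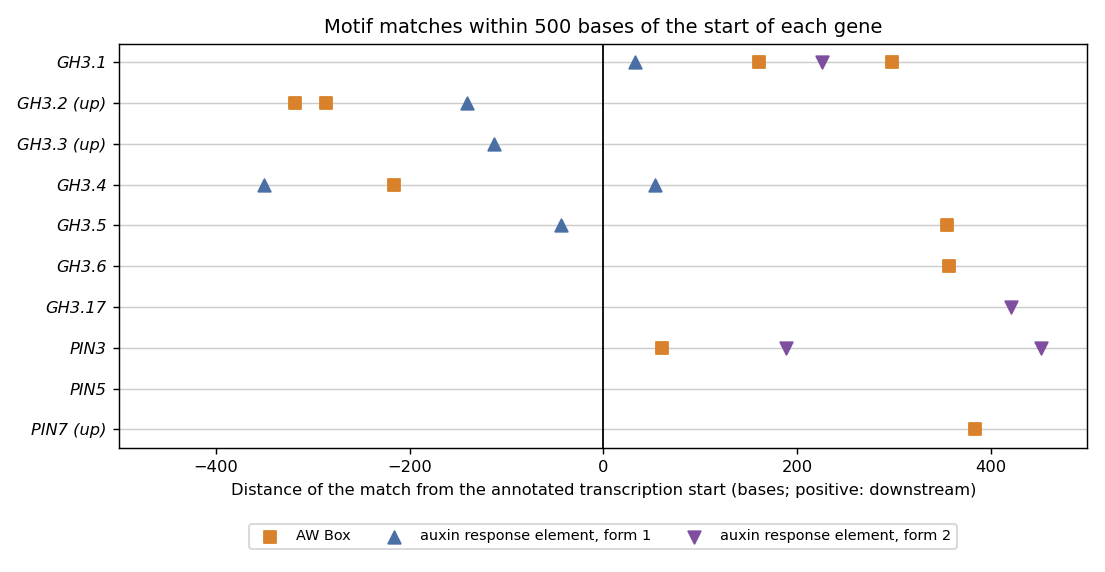
Positions of motif matches relative to the annotated transcription start of each of the 10 genes, in bases, with downstream positive. Squares are AW Boxes and triangles are the auxin response elements TGTCTC (form 1, pointing up) and TGTCGG (form 2, pointing down); GH3.2 has 2 AW Boxes upstream, PIN7 has 1 downstream and GH3.3 has none.

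For the tested pair with the largest fitted changes, the genes of most similar pattern over the 6 libraries were listed by Pearson correlation of log2(CPM + 1). For PIN7 these were AT5G57785, LHCA1 and ACP3, each with r = 0.999, and 1387 genes had r over 0.95. For GH3.3 they were NUDX14 (r = 0.995), KEA2 (0.992) and EME1A (0.990), and 179 genes had r over 0.95. The libraries share the step between groups, so these values only describe likeness.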

How the data were processed

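RNA-seq of 6 protoplast libraries was used. Per the study's methods, the authors removed rRNA reads and aligned the rest to TAIR10 primary transcripts with Bowtie 0.12.7, keeping reads with a single best location, so reads shared equally by paralogs were lost. The deposited counts are raw reads per primary transcript. Strand use was not stated. The files list only genes with a read, so an unlisted gene was taken as 0, and a line naming no gene (39.4% to 63.3% of all reads) was excluded. The authors' TMM-normalized table was not used.

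Groups came from the sample titles. That the replicates are separate biological samples was taken from the series' design text. Differences were fitted with the quasi-likelihood test of edgeR 4.0.16 under R 4.3.3, after TMM scaling and a filterByExpr cutoff of 10 counts, with no covariate beside group and with Benjamini-Hochberg adjustment over all tested genes. The study names edgeR with the same limits but no test. Intervals of fold changes come from the quasi-likelihood SE. Intervals of shares are Wilson intervals and those of pooled ratios are exact conditional binomial intervals. Alternatives were the exact and likelihood ratio tests, DESeq2 1.42.0, other scalings and filters, a replicate block and leaving out each library. The test was checked on simulated counts, with changes placed only in genes of higher control counts than GH3.2, GH3.3 and PIN7. That check does not cover genes as scarce as these.

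The genes and lists were chosen with earlier results of these data known. All 10 genes are named. From other lists, at most 4 up-regulated or down-regulated genes in each direction are named by size of change, and others named (JAR1, PBS3, ABCB4, PILS3, IAR3, DAO1, AFB4, ILL1, IAA16, IAA26, GH3.13, YUC8 and similar) were chosen after their values were seen. Transcript lengths, uniqueness and motif positions come from RefSeq TAIR10.1, whose coordinates are printed. All 10 loci matched. Their deposited counts rest on TAIR10 transcripts, which may differ in their ends. The read length was not given in the sources used here, and 36 bases were assumed.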

Additional observations from a re-analysis of the deposited data

How the results depend on the processing

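GH3.2, GH3.3 and PIN7 were up-regulated and no other of the 10 genes was called under all 14 alternative fits. Log2 fold changes ranged from 2.00 to 2.90 for GH3.2 and from 2.65 to 3.6 for GH3.3. The GH3.6 value changed sign without mCHERRY replicate 3 (0.12), and leaving out 1 library gave -0.17 to 0.12. GH3.5 and GH3.17 stayed under the fold limit throughout (-0.43 to -0.11 and 0.15 to 0.36), with edgeR or DESeq2 adjusted p from 0.0201 to 0.541 and from 0.0201 to 0.355. With the adjusted p alone and no fold limit, 3017 genes were higher and 2150 lower. Leaving out 1 library gave 1258 to 1480 up-regulated and 188 to 276 down-regulated genes, with 3 and 0 of the 10 genes. With the replicate number as a block, 1390 and 220 genes and again 3 and 0 of the 10 were called. Under that block GH3.5 (-0.30, edgeR adjusted p = 0.0201) and GH3.17 (0.26, edgeR adjusted p = 0.0479) passed the adjusted p but not the fold limit. Deviations of same-numbered libraries correlated at 0.123, -0.0198 and 0.0509. Libraries numbered 1 and 3 correlated best with their own number, and those numbered 2 did not. These values cannot settle whether same-numbered libraries were prepared together. Of 240 counts in the other lists, 15 moved by over 1.5 times, 10 of them without the fold limit. No scaling moved the median of all genes by over 0.1. Depth left GH3.1, GH3.4, PIN3 and PIN5 untested.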

Other observations

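Several auxin genes lay under the filter on low counts and appeared among the up-regulated genes only when that filter was dropped, and they are given here after their values were seen. Without the filter, 1671 of 21671 genes were called up-regulated, against 1393 of 14762 with it. Newly called genes were thus not confined to auxin genes. YUC8, an enzyme of IAA synthesis, had 0, 0 and 0 counts in mCHERRY and 6, 8 and 2 counts in GmWRI1 libraries (edgeR adjusted p = 0.00593 without the filter). GH3.13, of a GH3 cluster with GH3.14, had 1, 0 and 0 counts in mCHERRY and 7, 7 and 7 counts in GmWRI1 libraries (edgeR adjusted p = 0.0068). ARF3, a factor of leaf polarity, had 2, 2 and 2 counts in mCHERRY and 27, 5 and 7 counts in GmWRI1 libraries (edgeR adjusted p = 0.00756). PIN2, best known from root epidermis, had 0, 0 and 0 counts in mCHERRY and 5, 6 and 0 counts in GmWRI1 libraries (edgeR adjusted p = 0.0316). Without mCHERRY replicate 3, the receptor AFB1 (log2 fold change 2.30, edgeR adjusted p = 0.0297) and the amidohydrolase ILL1 (1.05, edgeR adjusted p = 0.00101) were also called.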
